A study of Mus musculus with 54 samples.

Results

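RNA of mouse embryonic stem (ES) cells carrying a 58 kb deletion at Haunt, a long noncoding RNA gene (58 kb KO), was compared with RNA of wild-type (WT) cells at day 4 of treatment with retinoic acid (RA). The comparison takes 4 of the 54 samples of the series, the libraries KO-i and KO-j of the deletion and the libraries WT-1 and WT-2. Every library came from 46C cells of strain 129/Ola, an ES line with a GFP reporter in Sox1. All were grown for a day in N2B27 medium to which LIF and 2i, a pair of inhibitors, had been added, and then passaged into 2 µM RA without them. The 4 libraries with the same names from day 2 of RA entered the same fit, so that the 4 groups shared an estimate of the spread. The deposited table lists 38363 entries, 11592 of them unnamed assembled loci, and the 15705 entries with at least 1 FPKM (fragments per kilobase of transcript, scaled to library depth) in at least 2 of the 8 libraries were tested on the log2(FPKM + 1) scale. The deletion takes away DNA and RNA together, so that loss of the RNA and loss of the sequence cannot be told apart. Nothing in the labels says whether KO-i and KO-j are separate clones or whether libraries of 1 group came from separate cultures, and p-values measure only the spread between these samples.

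Haunt is transcribed on the flank of the HOXA cluster, a row of homeobox genes that set position along the body axis. RA binds nuclear receptors at the DNA and switches on early HOX genes together with the genes of its own breakdown. ES cells that leave pluripotency in RA without serum give neural cells, and part of such cultures turns to extraembryonic endoderm. In that lineage the factors GATA4 and GATA6 act on top of a programme of secreted carriers, endocytic receptors and a thick basement membrane of type IV collagen and laminin. Simple epithelia, of which extraembryonic endoderm is one, hold the keratin pair of Krt8 and Krt18.

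The steps between low FPKM values put the depth of the libraries at 15.0 M reads for KO-i, 12.3 M for KO-j, 10.1 M for WT-1 and 16.0 M for WT-2 at day 4. Day explained the leading principal component of the 8 libraries (61.3% of the variance), and on the next (14.1%) KO-i lay apart from every other library of its day. Values are therefore given for each library, KO-i before KO-j and WT-1 before WT-2, and the medians of gene lists also for KO-i and KO-j apart. Pluripotency genes were still read at day 4: Pou5f1 measured 11.4 and 25.2 FPKM in 58 kb KO and 21.2 and 22 FPKM in WT, and groups overlapped. Of 15 markers of blood and endothelium 2, Hbb-bh1 among them, were listed at 0 in all 4 libraries, and of 12 of fibroblasts Lum and S100a4. The FPKM of the blood and endothelium list summed to 6.25 and 7.09 in KO against 7.59 and 6.92 in WT, and those of the fibroblast list to 20.8 and 20.4 against 18.6 and 16.1. Shifts along chromosomes touch results below. KO-i was higher over the whole of chromosome 1, and KO-j over its distal end and the distal end of chromosome 6. KO-j was also higher, by less at day 4, over the proximal part of chromosome 6. WT-2 was higher over the distal end of the X chromosome. All were there at both days, and their values are given at the end, with the named genes that lie in these regions.

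No gene passed the threshold at day 4 (0 of 15705, 0%, limma with Benjamini-Hochberg adjustment; smallest adjusted p = 0.128). At an unadjusted p under 0.05 stood 1087 lower genes (6.92%) and 1176 higher genes (7.49%). Both KO libraries lay below both WT libraries in 3407 genes (21.7%), and above them in 3914 genes (24.9%). These shares are the background against which each gene list below is read, and below "apart" is said of a gene whose KO and WT libraries did not overlap. The lists were chosen with earlier results of these data known, so a share above the background is no test of a list. The counts lean on single libraries: at an unadjusted p under 0.05 there were 631 lower and 687 higher genes without KO-i, 1519 and 1784 without KO-j, 593 and 530 without WT-2, and 897 and 853 without WT-1. The count of called genes was 7 without KO-j and 1 without WT-1. Since no difference passed at day 4, the day 4 differences that follow are descriptions of these libraries.

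Haunt itself, the targeted gene, was low in the deletion, and lower in KO-j than in KO-i. Listed as Gm15055 (ENSMUSG00000085412, mm9 chromosome 6, 52052948 to 52062531), it measured 3.08 and 0.447 FPKM in 58 kb KO and 31.8 and 40.6 FPKM in WT. The difference of -3.93 log2 units (SE 0.50) is the largest decrease among named genes of at least 5 FPKM that were apart, and its adjusted p was 0.128 in limma. At day 2 it had measured 1.13 and 0 FPKM in 58 kb KO and 128 and 142 FPKM in WT, a difference that passed (-6.54, limma adjusted p = 0.0153). In WT it fell from day 2 to day 4 (-1.87, adjusted p = 0.0307). The start of the gene is shown because Haunt is the targeted transcript. RefSeq (GRCm38.p6) holds it under the symbol Halr1 at chr6:52102699-52102998, plus strand, from 250 bases before to 50 bases after the start, with no letters marked.
Halr1: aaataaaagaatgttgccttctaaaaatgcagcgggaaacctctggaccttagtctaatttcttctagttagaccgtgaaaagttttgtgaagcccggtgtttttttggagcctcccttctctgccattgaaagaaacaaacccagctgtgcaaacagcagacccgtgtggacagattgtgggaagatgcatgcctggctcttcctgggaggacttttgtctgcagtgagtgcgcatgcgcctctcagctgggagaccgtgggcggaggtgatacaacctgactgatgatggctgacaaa

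At the end of the cluster that faces Haunt, a noncoding RNA was lower in both KO libraries. Gm15051 (ENSMUSG00000087658, chromosome 6, 52106901 to 52112118), known as Hotairm1, measured 162 and 176 FPKM in 58 kb KO and 286 and 341 FPKM in WT (-0.88, SE 0.12, limma adjusted p = 0.128). Its groups were apart, and its difference had been -1.38 at day 2, where it passed (limma adjusted p = 0.0202). The libraries do not mark strand, so reads of a HOX gene and of an antisense RNA that overlaps it cannot be told apart.

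Hoxa5, a gene of the middle of the cluster, measured 99.3 and 118 FPKM in 58 kb KO and 133 and 172 FPKM in WT at day 4 (-0.48). At day 2 it measured 22.7 and 22.2 FPKM in 58 kb KO and 73.2 and 84.4 FPKM in WT, and this difference passed (-1.76, limma adjusted p = 0.0202). Groups were apart at both days. The difference between the days was +1.29 (SE 0.21, limma adjusted p = 0.71). From day 2 to day 4 Hoxa5 rose in both genotypes, by +2.22 in 58 kb KO and +0.94 in WT (adjusted p = 0.00161 and 0.00517). Hoxa4, next to it, measured 55.1 and 48.9 FPKM in 58 kb KO and 40.6 and 34.7 FPKM in WT at day 4 (+0.46), and 11.1 and 11.9 FPKM in 58 kb KO and 20.7 and 15.3 FPKM in WT at day 2 (-0.59). Its KO libraries were thus below WT at day 2 and above it at day 4. The more distant genes were low: Hoxa7 measured 2.96 and 3.05 FPKM in 58 kb KO and 4.83 and 6.88 FPKM in WT, and Hoxa9 0.222 and 0.373 against 0.625 and 1.82 FPKM. Of 9 HOXA genes past the filter, 6 were lower and 1 higher with groups apart, and the median was -0.63 (-0.69 in KO-i, -0.56 in KO-j), where all genes had +0.02.

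The HOXB cluster on chromosome 11 leaned the other way. Of its 10 genes 7 were higher and 1 lower with groups apart (median +0.24). Hoxb1, another early RA target, measured 58.5 and 46.9 FPKM in 58 kb KO and 38.1 and 17.3 FPKM in WT (+1.00, adjusted p = 0.266), and WT-2 lay far below the other libraries. The lower gene was Hoxb13, at the far end of the cluster, with 6.81 and 6.89 FPKM in 58 kb KO and 12.2 and 27.9 FPKM in WT. On the side of Haunt away from HOXA, Skap2, an adaptor of immune-cell signalling, measured 24.8 and 26 FPKM in 58 kb KO and 39.3 and 46.8 FPKM in WT (-0.74, adjusted p = 0.173). 2700086A05Rik, an RNA gene that spans Hoxa5 and Hoxa6 within the cluster, measured 5.27 and 4.46 FPKM in 58 kb KO and 5.71 and 8.11 FPKM in WT, with no overlap. Of the 10 tested entries of the neighbour list other than Haunt, 4 were lower and 3 higher with groups apart. The lower ones were Skap2 and, within the cluster by position, Gm15051, 5730446D14Rik and 2700086A05Rik. The higher ones, Snx10, Hibadh and Jazf1, all lie outside the cluster.

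Transcription factors of the endoderm were lower in both KO libraries as a group. Of 11 tested, 8 were lower with groups apart and 0 higher, and 7 reached an unadjusted p under 0.05. The median was -0.69 at day 4 (-0.81 in KO-i, -0.51 in KO-j) and -0.31 at day 2. In RNA of whole cultures, fewer cells of a type and less RNA per cell cannot be told apart. Gata4 measured 25.5 and 23.7 FPKM in 58 kb KO and 43.4 and 47.6 FPKM in WT (-0.86, SE 0.15, limma adjusted p = 0.134), with a tight spread in each group. Gata6 measured 14.9 and 20.00 FPKM in 58 kb KO and 33.6 and 43.1 FPKM in WT (-1.10).

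The forkhead and hepatocyte nuclear factors of the lineage had the same order. Foxa1, which opens chromatin for endoderm genes, measured 8.53 and 23.2 FPKM in 58 kb KO and 28.7 and 38.9 FPKM in WT, so that KO-i was far lower than KO-j. Foxa2 measured 8.07 and 12.9 against 16.1 and 22.8 FPKM (-0.84). The forkhead gene Foxq1 measured 12.4 and 14.3 FPKM in 58 kb KO and 21.4 and 19.8 FPKM in WT (-0.59). Hnf4a was low everywhere, at 0.355 and 0.61 FPKM in 58 kb KO and 1.52 and 1.32 FPKM in WT. The Sox genes of the lineage did not follow: Sox17 measured 4.24 and 4.28 FPKM in 58 kb KO and 5.14 and 3.95 FPKM in WT and Sox7 16.2 and 24.2 against 29.9 and 22.8 FPKM, with groups that overlapped.

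**Figure D1:**
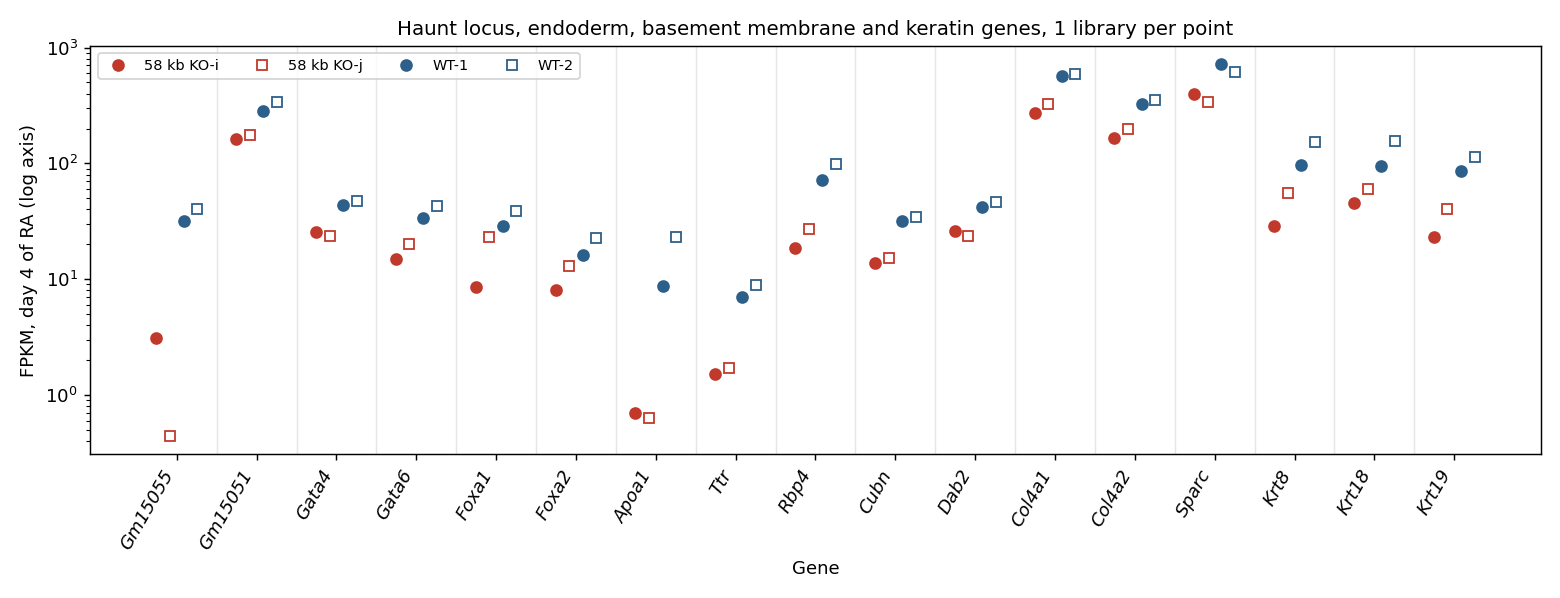
FPKM at day 4 of RA in each library (KO-i, KO-j, WT-1, WT-2 from left to right, log axis) for genes of the Haunt locus, endoderm, basement membrane and keratins, 1 point per library. Every gene shown has its 2 KO points below its 2 WT points, from Gm15055 at 3.08 and 0.447 against 31.8 and 40.6 FPKM to Krt19 at 23 and 40.5 against 85.3 and 114 FPKM. Genes of the same lists that overlapped, such as Sox17 and Lamc1, or were higher, such as Agrn and Epcam, are not drawn.

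Secreted products of the visceral endoderm were low in both KO libraries, and Apoa1, Ttr and Rbp4 were among the genes that the rule of smallest p and largest fold named. Apoa1, the main protein of high-density lipoprotein, measured 0.693 and 0.634 FPKM in 58 kb KO and 8.69 and 23.2 FPKM in WT (-3.20, SE 0.43, adjusted p = 0.128). Its KO libraries were under 1 FPKM, as all 4 libraries had been at day 2 (0.572 and 0.0788 FPKM in 58 kb KO and 0.598 and 0.108 FPKM in WT). Rbp4, the blood carrier of retinol, measured 18.7 and 27.2 FPKM in 58 kb KO and 71.2 and 98 FPKM in WT (-1.84, adjusted p = 0.174). Ttr, which travels with that carrier, measured 1.53 and 1.70 against 7.05 and 8.96 FPKM (-1.78). Mttp, which loads lipid onto apolipoproteins, measured 5.58 and 7.56 FPKM in 58 kb KO and 12 and 15.6 FPKM in WT (-0.97, adjusted p = 0.165).

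The uptake machinery of that epithelium was split. Cubn, a receptor for vitamin carriers, measured 13.7 and 15.3 FPKM in 58 kb KO and 32 and 34.7 FPKM in WT (-1.15), and its adaptor Dab2 25.9 and 23.6 against 42 and 46.5 FPKM (-0.81). Lrp2, a partner of Cubn, differed little, at 11.1 and 10.1 FPKM in 58 kb KO and 11.4 and 12.2 FPKM in WT, and Apoe overlapped at 47.2 and 87.7 against 70.1 and 45.9 FPKM. Amn, low throughout, lay on the higher side at 1.32 and 0.775 FPKM in 58 kb KO and 0.604 and 0.339 FPKM in WT (+0.47). Over the list 10 of 14 tested genes were lower and 1 higher with groups apart, and the median was -0.74, alike in KO-i and KO-j (-0.82 and -0.82), against -0.08 at day 2. The promoter of Apoa1 is shown since no named gene but Haunt had a lower difference. In RefSeq (GRCm38.p6) it lies at chr9:46228380-46228679, plus strand, and capitals mark the letters AGATAA, or TGATAA, or AGATAG, or TGATAG, of GATA factors and the receptor hexamers AGGTCA, or GGGTCA, or AGTTCA, on either strand, with overlapping matches each counted.
Apoa1: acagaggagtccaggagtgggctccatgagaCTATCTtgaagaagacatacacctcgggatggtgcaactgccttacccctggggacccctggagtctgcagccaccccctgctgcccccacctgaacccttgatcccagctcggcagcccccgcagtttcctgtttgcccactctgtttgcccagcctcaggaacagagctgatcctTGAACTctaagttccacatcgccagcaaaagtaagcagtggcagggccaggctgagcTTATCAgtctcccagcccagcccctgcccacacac

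Most tested genes of the basement membrane list were lower in both KO libraries, among them abundant ones such as Sparc and Col4a1. The list also holds parietal endoderm genes outside the membrane, such as Plat and Pdgfra, and genes of collagen processing, such as Serpinh1 and Plod2. Its counts and medians cover them all. Col4a1 measured 273 and 328 FPKM in 58 kb KO and 563 and 589 FPKM in WT (-0.94, SE 0.20, limma adjusted p = 0.168), and Col4a2, whose chain forms a trimer with it, 165 and 198 FPKM in 58 kb KO and 327 and 355 FPKM in WT (-0.91, SE 0.18). The ratio between the genotypes was close to the same in this pair. Sparc, a collagen-binding matrix protein made in quantity by parietal endoderm, measured 395 and 337 FPKM in 58 kb KO and 714 and 614 FPKM in WT (-0.86). Serpinh1, the collagen chaperone of the endoplasmic reticulum, measured 239.7 and 225 FPKM in 58 kb KO and 363 and 394 FPKM in WT (-0.70, adjusted p = 0.143).

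The collagen genes lie head to head. In RefSeq (GRCm38.p6) the starts of Col4a1 and Col4a2 are 21 bases apart on opposite strands of chromosome 8, and their promoter windows share 78 bases. The window of Col4a2 is shown, at chr8:11312555-11312854, plus strand, and capitals mark the bases that also lie in the Col4a1 window.
Col4a2: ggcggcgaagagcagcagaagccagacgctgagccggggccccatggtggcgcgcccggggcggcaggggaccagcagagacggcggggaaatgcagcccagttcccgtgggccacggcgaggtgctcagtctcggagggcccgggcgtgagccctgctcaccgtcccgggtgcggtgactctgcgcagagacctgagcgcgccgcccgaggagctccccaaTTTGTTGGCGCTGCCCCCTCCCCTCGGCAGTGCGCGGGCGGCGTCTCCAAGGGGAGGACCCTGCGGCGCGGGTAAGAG
Neither window holds the GATA letters named above or a receptor hexamer. Those GATA letters occurred in 0 of 16 promoters of the basement membrane list, 4 of 23 of visceral endoderm genes (17.4%) and 5 of 14 of endoderm factors (35.7%), and in 29.8% of all 32851 promoters. A match of letters is a description of this window, and its absence says nothing of a factor.

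Other parts of the membrane differed less, and some were higher. The laminin chain gene Lama1 measured 155 and 110.0 FPKM in 58 kb KO and 228 and 185 FPKM in WT (-0.65), and Lamb1 165 and 131 against 236 and 192 FPKM (-0.53). The third chain of that trimer, Lamc1, overlapped at 246 and 156 against 256 and 215 FPKM. Lama5 and the proteoglycan Agrn were higher with groups apart: Lama5 measured 59.1 and 51.7 FPKM in 58 kb KO and 40.1 and 37.8 FPKM in WT (+0.49) and Agrn 94.8 and 93.8 against 68.5 and 58.6 FPKM (+0.57). Nid2 differed little (179.8 and 185 against 189 and 196 FPKM). Parietal endoderm genes outside the membrane were lower: the protease Plat measured 43.7 and 42 FPKM in 58 kb KO and 69 and 71.8 FPKM in WT, the receptor Pth1r 15.4 and 20.4 against 29.1 and 43.9 FPKM, and the receptor Pdgfra 9.45 and 10.3 against 16.9 and 22.2 FPKM.

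Of 19 tested genes of the list, 14 were lower and 2 higher with groups apart, and 12 of the lower ones reached an unadjusted p under 0.05. The median was -0.53 at day 4 and -0.03 at day 2. Of 13 tested collagen genes other than Col4a1 and Col4a2, 1 was lower and 4 were higher with groups apart (median +0.09). Col18a1, the most abundant of them, overlapped at 127 and 144 FPKM in 58 kb KO and 141 and 131 FPKM in WT.

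The keratins of simple epithelia were all lower in both KO libraries, while junction genes went both ways. Krt8 measured 28.5 and 55.8 FPKM in 58 kb KO and 96.6 and 154 FPKM in WT (-1.59, SE 0.32, limma adjusted p = 0.165). Its partner Krt18 measured 45.3 and 59.6 FPKM in 58 kb KO and 94 and 155 FPKM in WT (-1.20), and Krt19 23 and 40.5 against 85.3 and 114 FPKM (-1.66). Krt7 was low, at 3.26 and 4.33 FPKM in 58 kb KO and 7.05 and 6.81 FPKM in WT (-0.73). WT-2 held the highest value of Krt8, Krt18 and Krt19 and KO-i the lowest, so that libraries of 1 genotype also differ.

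In the rest of that list the claudin gene Cldn6 measured 34.9 and 45.9 FPKM in 58 kb KO and 53.1 and 74.9 FPKM in WT (-0.64), and the desmosome gene Dsp 56.2 and 112 against 115 and 143 FPKM, with KO-i apart from the other libraries. The adhesion gene Epcam measured 16.2 and 15.1 FPKM in 58 kb KO and 10.4 and 12.4 FPKM in WT (+0.43), and Perp, a desmosome gene, 12.7 and 19.7 against 11 and 10.4 FPKM (+0.52), both on the higher side. The tight junction scaffold Tjp1 was level at 43 and 43.1 against 41.5 and 43.6 FPKM, and Cdh1, or E-cadherin, overlapped at 18.4 and 36.9 against 35.8 and 40.7 FPKM. Over 20 tested genes 9 were lower and 5 higher with groups apart. The median of -0.17 was -0.29 in KO-i and -0.05 in KO-j.

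The promoter of Krt8 is shown as that of the keratin with the smallest p. RefSeq (GRCm38.p6) puts it at chr15:102004293-102004592, minus strand, and capitals mark the GATA letters.
Krt8: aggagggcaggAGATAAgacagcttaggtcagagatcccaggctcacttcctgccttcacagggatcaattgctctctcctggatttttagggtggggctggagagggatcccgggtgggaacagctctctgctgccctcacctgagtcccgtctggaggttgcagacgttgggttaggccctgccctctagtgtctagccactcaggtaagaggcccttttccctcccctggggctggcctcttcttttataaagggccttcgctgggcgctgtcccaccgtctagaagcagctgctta
The Krt18 window on the same chromosome holds none of these letters.

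**Figure D2:**
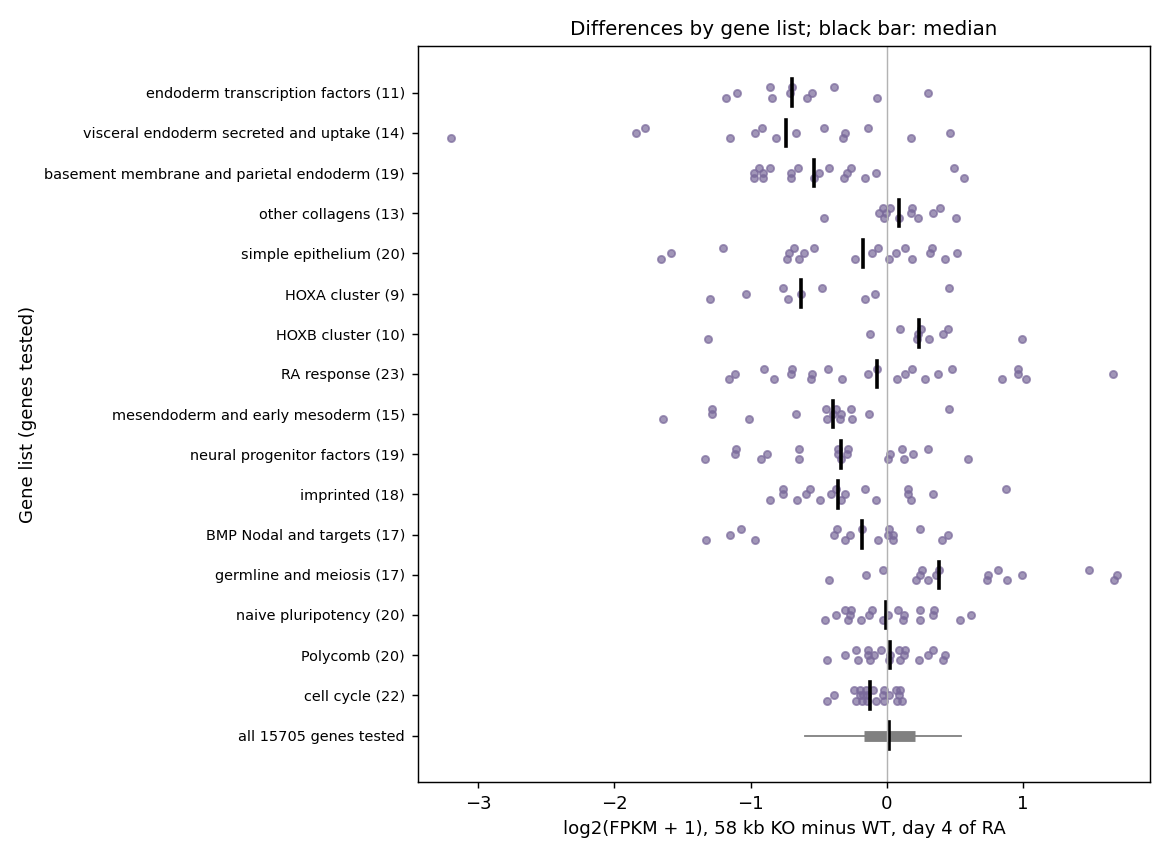
Difference in log2(FPKM + 1) between 58 kb KO and WT at day 4 of RA (horizontal axis) for the tested genes of 16 lists (1 point per gene) and, in the lowest line, for all genes tested (thick line: middle 50%, thin line: middle 90%); black bars are medians. The bars of endoderm factors, visceral endoderm and basement membrane lie at -0.69, -0.74 and -0.53, that of all genes at +0.02.

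Many of these genes rose between day 2 and day 4, in both genotypes. In limma with Benjamini-Hochberg adjustment 1576 genes (10%) rose in 58 kb KO and 2260 (14.4%) in WT from day 2 to day 4. Of the basement membrane list 14 of 19 rose in 58 kb KO and 16 in WT. The median change was +0.90 in 58 kb KO and +1.51 in WT. Of the endoderm factors 5 of 11 rose in 58 kb KO and 8 in WT, and of the visceral endoderm genes 6 of 14 in 58 kb KO and 8 in WT.

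At day 2 the medians of the basement membrane and visceral endoderm lists were near 0, while that of the endoderm factors was -0.31. Gata6 had -0.77 and Foxq1 -0.74 at day 2, against -1.10 and -0.59 at day 4. Col4a1 measured 48.9 and 36.5 FPKM in 58 kb KO and 36.2 and 51.6 FPKM in WT at day 2, and it then rose by +2.80 in 58 kb KO and +3.70 in WT (adjusted p = 0.00161 and 0.000302). Krt8 measured 8.61 and 10.3 FPKM in 58 kb KO and 10.9 and 10.4 FPKM in WT at day 2 and rose by +1.98 in 58 kb KO and +3.41 in WT. Rbp4 rose by +1.84 in 58 kb KO and +4.38 in WT. Apoa1 had +0.35 in 58 kb KO (adjusted p = 0.598) and rose by +3.52 in WT (adjusted p = 0.00184). The difference between the days was tested directly. No gene passed (0 of 15705, 0%). At an unadjusted p under 0.05 in limma, 541 genes (3.44%) were more negative at day 4. Among them were 7 of 19 genes of the basement membrane list, 4 of 14 visceral endoderm genes, 1 of 11 endoderm factors and 5 of 20 epithelial genes. For Col4a1 the difference between the days was -0.91 (SE 0.28, limma adjusted p = 0.777).

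**Figure D3:**
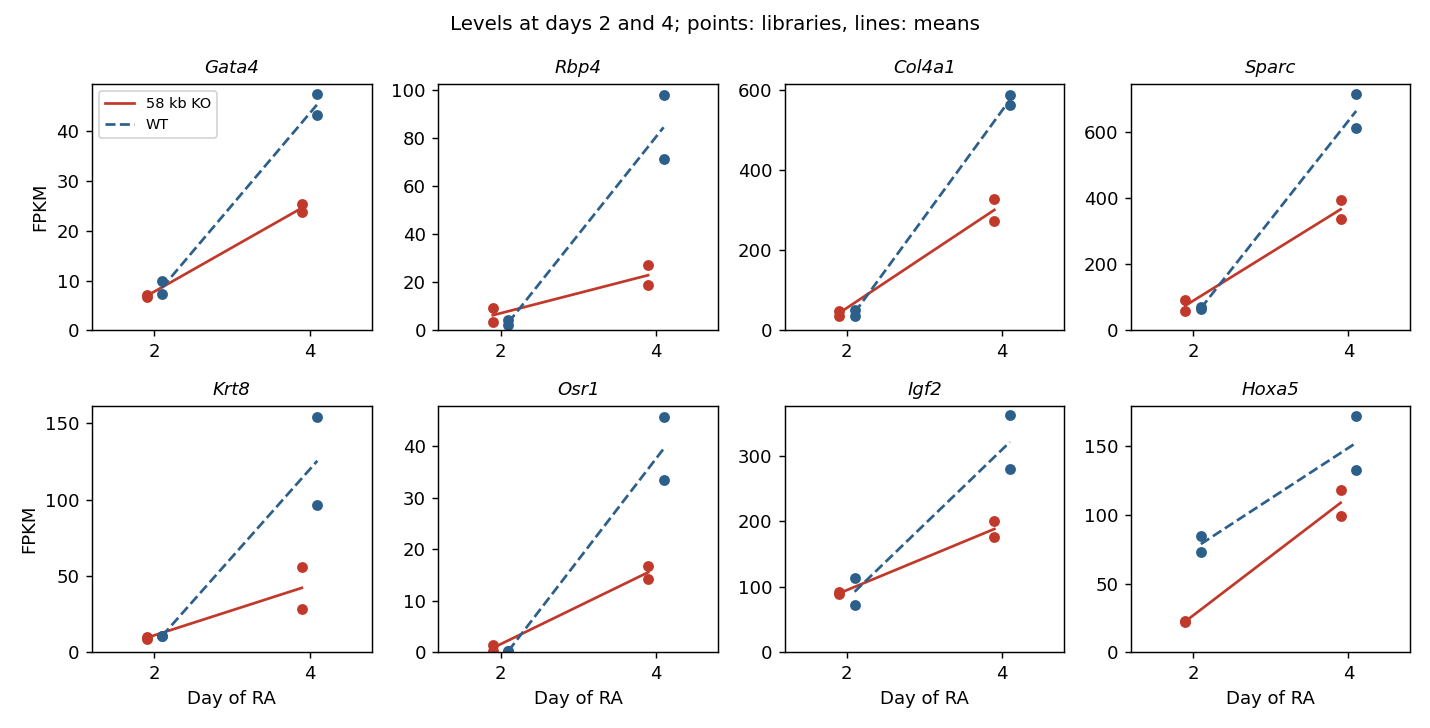
FPKM at days 2 and 4 of RA (horizontal axis) for 8 genes in 58 kb KO (red, solid lines) and WT (blue, dashed lines); points are libraries and lines join the means of 2 libraries. At day 2 the points of Col4a1 mix (48.9 and 36.5 FPKM in 58 kb KO against 36.2 and 51.6 FPKM in WT), and at day 4 its KO points lie below its WT points (273 and 328 against 563 and 589 FPKM).

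Genes that handle and answer RA were split by role. The enzymes that break RA down were higher in both KO libraries. Cyp26a1 measured 1359 and 995 FPKM in 58 kb KO and 738 and 479.6 FPKM in WT (+0.97, SE 0.29, limma adjusted p = 0.239), and Cyp26b1 277 and 170.1 FPKM in 58 kb KO and 125 and 115 FPKM in WT (+0.85). The corepressor gene Zfp703 measured 213 and 137 FPKM in 58 kb KO and 96.9 and 78 FPKM in WT (+0.97, adjusted p = 0.174), and at day 2 its groups overlapped. Cyp26a1 was chosen for its sequence because its promoter carries the repeat of receptor hexamers spaced by 5 bases that RA receptors bind. It lies at chr19:37697558-37697857 (RefSeq, GRCm38.p6, plus strand), and capitals mark the repeat, which reads AGTTCA on the other strand.
Cyp26a1: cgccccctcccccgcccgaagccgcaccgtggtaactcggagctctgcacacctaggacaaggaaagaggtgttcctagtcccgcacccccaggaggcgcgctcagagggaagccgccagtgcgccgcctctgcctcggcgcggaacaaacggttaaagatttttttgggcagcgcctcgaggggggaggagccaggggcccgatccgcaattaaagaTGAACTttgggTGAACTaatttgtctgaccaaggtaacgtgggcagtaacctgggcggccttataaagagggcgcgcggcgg
A repeat of the hexamers named above with that spacing occurred in 24 of 32851 promoters (0.0731%) and in 1 of 27 promoters of the RA list.

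On the side of supply the values were lower. Stra6, the membrane importer of retinol, measured 65.4 and 70.8 FPKM in 58 kb KO and 106 and 154 FPKM in WT (-0.90, SE 0.18, adjusted p = 0.165). Rdh10, which oxidises retinol, measured 9.03 and 6.78 FPKM in 58 kb KO and 13 and 16.5 FPKM in WT (-0.83). Aldh1a2, which makes RA in the next step, measured 9.88 and 12.6 against 20.6 and 30.9 FPKM (-1.11), and the groups of both genes were apart. Crabp1, a binding protein of RA in the cell, measured 19.1 and 21.6 FPKM in 58 kb KO and 37 and 58.7 FPKM in WT (-1.16, adjusted p = 0.134), while Crabp2 overlapped at 399 and 473 against 406 and 314 FPKM. Rbp4, the retinol carrier, is counted in the visceral endoderm list and not in the RA list. Stra6, Rdh10, Aldh1a2 and Crabp1 are counted in the RA list alone. Whether the lower values of these genes go together was not tested.

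Among receptors and targets the values went both ways. The RA receptors Rara, Rarb and Rarg had +0.14, -0.33 and +0.38. Meis1, for a cofactor of HOX proteins, measured 27.4 and 37.7 FPKM in 58 kb KO and 43.5 and 51.7 FPKM in WT, with no overlap. The orphan receptors Nr2f1 and Nr2f2, which RA induces, had -0.71 and -0.69. Over the RA list 11 of 23 tested genes were lower and 8 higher with groups apart, and the median was -0.07.

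**Figure D4:**
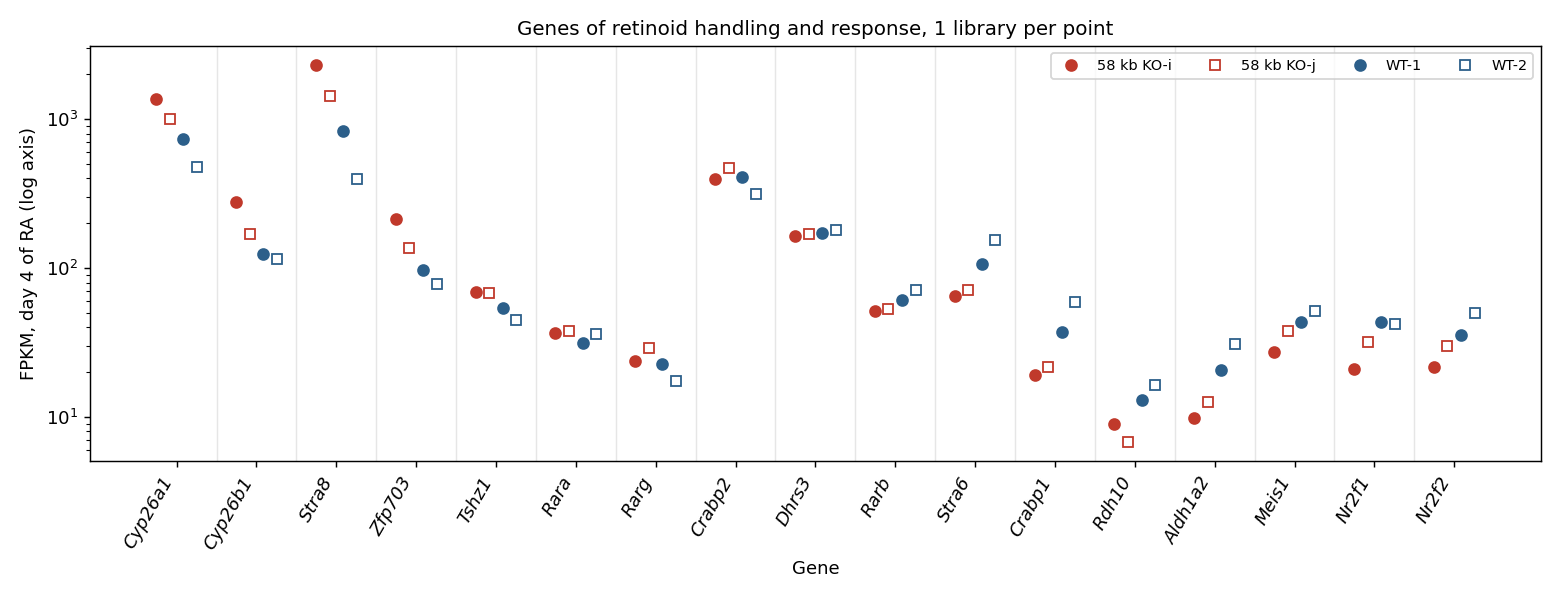
FPKM at day 4 of RA in each library (KO-i, KO-j, WT-1, WT-2 from left to right, log axis) for genes of retinoid handling and response, 1 point per library. At the left the KO points lie above the WT points, as for Cyp26a1 (1359 and 995 against 738 and 479.6 FPKM), at the right below them, as for Aldh1a2 (9.88 and 12.6 against 20.6 and 30.9 FPKM), and those of genes between them, such as Crabp2, overlap or differ little.

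Stra8, which RA switches on at the entry to meiosis, was the most abundant named gene among the higher ones with an unadjusted p under 0.05, at 2314 and 1429.5 FPKM in 58 kb KO and 834 and 395 FPKM in WT (+1.66, SE 0.45, adjusted p = 0.206). It was at 2376 and 1261 FPKM in 58 kb KO and 1165 and 735 FPKM in WT at day 2. The meiotic cohesin gene Rec8 measured 376 and 397 FPKM in 58 kb KO and 258 and 208 FPKM in WT (+0.74). Other meiosis and germline genes were high chiefly in KO-i. Stag3, also of cohesin, measured 119 and 24.1 FPKM in 58 kb KO and 16.1 and 15.8 FPKM in WT, and Taf7l, a testis form of a TFIID subunit, 31.1 and 4.45 against 3.96 and 3.47 FPKM. Over 17 tested genes the median was +1.04 in KO-i and +0.18 in KO-j, and 6 were higher and 1 lower with groups apart.

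The window of Stra8 in RefSeq (GRCm38.p6), shown as that of the gene with the highest FPKM on this side, lies at chr6:34920698-34920997, plus strand. Capitals mark the receptor hexamers, which occur in 37.5% of all promoters.
Stra8: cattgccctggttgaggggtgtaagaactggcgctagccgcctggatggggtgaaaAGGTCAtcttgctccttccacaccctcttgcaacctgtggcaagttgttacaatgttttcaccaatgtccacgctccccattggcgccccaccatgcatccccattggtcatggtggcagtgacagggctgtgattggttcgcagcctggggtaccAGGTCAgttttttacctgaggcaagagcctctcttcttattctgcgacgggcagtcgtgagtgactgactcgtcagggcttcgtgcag

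Genes of mesoderm and of urogenital and vascular precursors were lower in part. Lhx1, a LIM homeobox factor of anterior endoderm and of kidney precursors, measured 4.27 and 4.66 FPKM in 58 kb KO and 12.6 and 20.5 FPKM in WT (-1.64, SE 0.25, limma adjusted p = 0.128). Osr1, a zinc finger factor of intermediate mesoderm, measured 14.3 and 16.7 FPKM in 58 kb KO and 33.4 and 45.5 FPKM in WT (-1.28, adjusted p = 0.173). The forkhead genes Foxf1 and Foxc2 had -1.01 and -1.29, and Foxc2 differed between the KO libraries (5.25 and 15.6 FPKM, against 20.3 and 28 FPKM in WT). Meox1, of the somites, lay on the higher side at 44 and 30.6 FPKM in 58 kb KO and 27.9 and 25.2 FPKM in WT. Of 15 tested genes 7 were lower and 1 higher with groups apart (median -0.39; -0.66 in KO-i and -0.30 in KO-j).

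Of the genes that answer BMP, Id1, Id2 and Id3 were lower in both KO libraries and Smad6 overlapped, while the ligands went both ways. Id1, an inhibitor of basic helix-loop-helix factors, measured 35.4 and 50.1 FPKM in 58 kb KO and 78.6 and 114 FPKM in WT (-1.15, SE 0.21, limma adjusted p = 0.145). Id2 measured 26.2 and 31.3 FPKM in 58 kb KO and 50.4 and 74.3 FPKM in WT (-1.07), and Id3 88.8 and 171 against 286 and 339 FPKM (-1.33). The ligand Bmp4 measured 10.2 and 9.85 FPKM in 58 kb KO and 5.82 and 8.58 FPKM in WT (+0.45) and Bmp7 31.6 and 29.8 against 21.3 and 24.6 FPKM (+0.41), both higher with groups apart, while Bmp5 was low at 0.202 and 0.352 against 1.28 and 1.72 FPKM. The inhibitory Smad gene Smad6, another BMP target, overlapped at 13.1 and 14 against 11.7 and 14.5 FPKM. Of 17 tested genes of the pathway list, 8 were lower and 2 higher with groups apart.

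In other pathways single members stood apart. Of the FGF receptors, Fgfr2 measured 17.8 and 26.9 FPKM in 58 kb KO and 32.6 and 38.1 FPKM in WT and Fgfr4, a receptor of endoderm, 3.95 and 4.34 against 6.63 and 6.84 FPKM. Of the feedback genes of that pathway Dusp6 overlapped at 16.9 and 26.9 against 19 and 12.7 FPKM. The Wnt target Axin2 measured 8.90 and 6.41 FPKM in 58 kb KO and 4.76 and 3.48 FPKM in WT (+0.75) and the Wnt effector Tcf7 31.2 and 20.8 against 19.1 and 15.8 FPKM (+0.53). Wnt5a, a ligand of the noncanonical branch, measured 2.47 and 3.35 against 5.87 and 5.73 FPKM (-0.81). The FGF list had 3 lower and 1 higher genes apart of 16 tested, and the Wnt list 5 and 2 of 16, next to 21.7% lower and 24.9% higher of all genes.

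Imprinted genes, which are expressed from 1 parental allele, leaned lower, among them the gene of the growth factor Igf2. Igf2 measured 176 and 199.7 FPKM in 58 kb KO and 279.9 and 362 FPKM in WT (-0.76, adjusted p = 0.215). Peg3 measured 148 and 204 FPKM in 58 kb KO and 237 and 278 FPKM in WT (-0.56). The paternal Dlk1 and the maternal Mirg of the Dlk1-Dio3 domain had -0.66 and -0.76, and Airn -0.86. Igf2r, which Airn silences on the paternal allele, overlapped at 52.3 and 39.6 against 41.1 and 40.3 FPKM. Cdkn1c was low in WT-2 alone, with 25.8 and 29 FPKM in 58 kb KO and 36.7 and 5.33 FPKM in WT, and it was so at day 2 as well (17.3 and 19.3 FPKM in 58 kb KO and 28.3 and 3.52 FPKM in WT). Over 18 tested genes 11 were lower and 1 higher with groups apart (median -0.35; -0.56 in KO-i and -0.18 in KO-j).

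Neural progenitor genes leaned lower in KO-i and not in KO-j. Their median was -0.57 in KO-i and +0.00 in KO-j, and 8 of 19 were lower and 3 higher with groups apart. Gbx2, a factor of the anterior hindbrain, measured 18.8 and 35.4 FPKM in 58 kb KO and 49.95 and 65.4 FPKM in WT (-1.11), and Irx3, of the neural plate, 5.35 and 13 against 15.2 and 24.4 FPKM (-1.11). Pax6, of hindbrain and cord progenitors, differed less, at 29.3 and 29.7 against 41.8 and 33.8 FPKM, and Sox1 was low and overlapped at 1.82 and 2.24 against 2.07 and 3.88 FPKM. Among neuronal genes Phox2a, of hindbrain motor neurons, measured 3.83 and 3.56 FPKM in 58 kb KO and 1.63 and 1.29 FPKM in WT (+0.94).

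The remaining lists are given by their counts. Of 20 naive pluripotency genes 3 were lower and 3 higher with groups apart, of 16 core and primed genes 3 and 1, of 20 Polycomb genes 4 and 7, of 22 cell cycle genes 6 and 2, and of 16 genes of cholesterol synthesis 4 and 3. KO-i was below KO-j in 90.9% of the cell cycle genes, and in 48.2% of all genes. The trophoblast factors had 4 and 2 of 11, the contractile genes 6 and 6 of 18, the targets of YAP and TGF-beta 9 and 6 of 21, the glycolysis genes 6 and 2 of 18, the neural crest genes 2 and 1 of 8, the neuronal genes 5 and 4 of 15 and the IGF genes 6 and 1 of 9. In the stress list of ATF4 targets 7 and 2 of 16 stood apart. Herpud1, of the endoplasmic reticulum, measured 23.8 and 22.5 FPKM in 58 kb KO and 33.9 and 37 FPKM in WT (-0.59), and the stress factor Atf3 30.5 and 28.9 against 18.7 and 14.7 FPKM (+0.80).

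By the smallest p among named genes of at least 5 FPKM that were apart, the lower side began with Gm10664, an uncharacterised RNA gene, at 1.84 and 2.57 FPKM in 58 kb KO and 12 and 12.4 FPKM in WT (-2.06, limma adjusted p = 0.128). Fam129b followed at 31.7 and 30.5 against 57.4 and 62.8 FPKM (-0.93). Then came 2210409E12Rik (-1.64), Haunt, Apoa1 and Gm15051, the calcium-binding Rcn3 of the secretory pathway (-0.83), Ttr, the transporter partner Emb (-0.96), the ectoenzyme Enpp1 (-1.45), the hexokinase relative Hkdc1 (-1.34) and the membrane carbonic anhydrase Car4 (5.91 and 8.78 against 25.2 and 40.1 FPKM). At day 2 Enpp1 and Hkdc1 were under 2 FPKM in all 4 libraries. By fold change the lower side added S100g (-2.45), the ribosomal locus RP23-81C12.1 (-2.18), AK191080, the pancreatic colipase gene Clps and the glutathione transferase Gstm1 (48.5 and 60.9 against 138 and 278 FPKM, -1.83). AK191080 measured 8.02 FPKM in KO-i and next to none in KO-j against 27.4 and 13.6 FPKM in WT (-2.76, between -4.35 and -1.17 with 1 library left out). Clps measured 0 and 2.90 against 4.21 and 9.53 FPKM (-1.91, between -2.89 and -0.93). Of the unnamed loci XLOC_021504 had -1.63, XLOC_016466 -1.86, and XLOC_019507 was listed at 0 in both KO libraries against 9.84 and 4.14 FPKM in WT.

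On the higher side the smallest p belonged to Bpnt1, a nucleotidase, at 24 and 19.3 FPKM in 58 kb KO and 11 and 10.5 FPKM in WT (+0.94, adjusted p = 0.128). It was followed by AK196959 (+1.30), Cecr5 (+0.69), the ligand gene Wnt9a (9.50 and 8.51 against 3.72 and 3.45 FPKM, +1.12), 6030419C18Rik (+1.14), Kctd3 (+0.60), Trp53bp2 (+0.61), Hap1 (+0.80), Ints7 (+0.56), Iars2 (+0.62), Wdr26 (+0.61) and Dock6 (+0.60). Of these 12, Bpnt1, Kctd3, Trp53bp2, Ints7, Iars2 and Wdr26 lie in the distal part of chromosome 1, where both KO libraries were shifted, and their differences were close to those at day 2 (+0.74 for Bpnt1, +0.54 for Ints7). By fold change the higher side began with Ndufs5, of respiratory complex I (91.1 and 43.6 against 5.32 and 28.8 FPKM, +2.22), and the dioxin-inducible oxidase gene Cyp1a1 (46.2 and 14.6 against 8.16 and 4.30 FPKM, +1.96). Scarna6 (+1.96), the X-linked homeobox gene Esx1 (+1.77), Stag3, Fbxo2 (+1.69), Stra8, the sex determination factor Dmrt1 (+1.66), Insl3 (+1.62) and Inca1 (+1.58) followed, and KO-i was the highest library in all of these but Insl3. With 1 library left out the difference of Stag3 ranged from +0.56 to +2.83 and that of Ndufs5 from +1.10 to +3.34, and the other 8 moved by over 1.5 times between their lowest and highest values. Of the unnamed loci XLOC_000738 had +0.89, XLOC_020532 +1.57 and XLOC_002292 +0.74.

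Position along the chromosomes moved with part of these values. Over genes of at least 5 FPKM in all 8 libraries, the 433 of chromosome 1 had a median difference from the WT mean of +0.29 in KO-i at day 4 and +0.30 at day 2, and in KO-j of -0.03 and +0.00422. In windows of 40 such genes KO-i was shifted by over 0.2 at both days in all 11 windows of chromosome 1, and KO-j in the last 2, from position 173996144 on (mm9), with medians of +0.44 at day 4 and +0.48 at day 2. KO-j was shifted likewise in 3 of the last 4 windows of chromosome 6, from 106728239 to 149284185, with +0.28 and +0.25. Proximal windows of chromosome 6 were raised in KO-j too, without passing 0.2 at both days. The window from 3150766 had +0.19 at day 4 and +0.23 at day 2. The window from 31348828, which holds Stra8, had +0.14 and +0.25. The window that holds Haunt and HOXA had +0.12 in KO-j and +0.04 in KO-i at day 4, opposite in sign to most HOXA genes. Of the 100 named genes with the smallest p on the higher side, 17 lay in that distal part of chromosome 1 and 12 on chromosome 6, against 0.911% and 4.40% of the 9551 named genes of at least 5 FPKM, and of the 100 on the lower side 0 and 3.

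WT libraries also differed by position. In the last window of the X chromosome, from 141924364 to 166447045, WT-2 exceeded WT-1 by a median of 0.87 log2 units at day 4 and 0.98 at day 2, and this was the only one of 207 windows with a shift over 0.2 between the WT libraries at both days. Against the WT mean KO-i stood there at -0.45 and KO-j at -0.51 at day 4. S100g, a calcium-binding gene named above, lies there, and it measured 1.75 and 2.44 FPKM in 58 kb KO, 7.02 FPKM in WT-1 and 34.5 FPKM in WT-2. The part of these shifts in single genes was not tested. Of the other genes named above, Sox17, Rdh10, Scarna6, Gbx2 and Lamc1 lie on chromosome 1 before its distal windows, Atf3 and XLOC_000738 in them, and Cecr5 and XLOC_019507 in the distal windows of chromosome 6. At day 4 the window of Cecr5 had +0.27 (KO-i) and +0.31 (KO-j). With the genes of chromosome 1, distal chromosome 6 and the distal X left out, the list medians were -0.70 over 10 endoderm factors, -0.81 over 13 visceral endoderm genes and -0.59 over 18 basement membrane genes, and that of the RA list was +0.08 over 21 genes. Proximal chromosome 6, with Stra8 and the HOXA genes, was not left out.

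**Figure D5:**
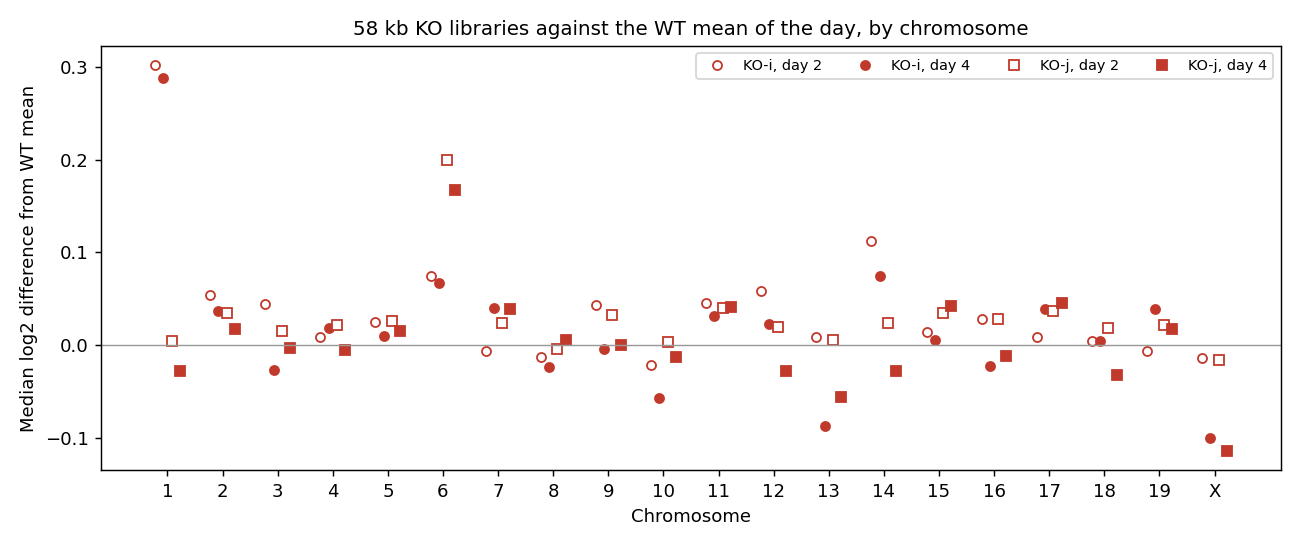
Median difference in log2(FPKM + 1) of the KO-i (circles) and KO-j (squares) libraries from the WT mean of the same day, by chromosome, over genes of at least 5 FPKM in all 8 libraries; open symbols are day 2 and filled symbols day 4. KO-i stands at +0.29 and KO-j at -0.03 on chromosome 1 at day 4, and KO-j at +0.17 and KO-i at +0.07 on chromosome 6.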

How the data were processed

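PolyA+ RNA of the cells was made into libraries with kits that do not mark strand, per the labels' protocols. The authors deposited a table of values per gene whose unit is not named in it and was judged to be FPKM from the values: low values step in units that scale with gene length, which also gave the depths. The submitters' processing notes name Bowtie 1.0.0, TopHat2 2.0.11, MACS 1.4.2, CASAVA and the mouse build mm9; their roles and the counting tool are not named in those notes. FPKM are not counts, so limma 3.58.1 (R 4.3.3) was fitted to log2(FPKM + 1), which understates fold changes of low genes, with an intensity trend, 4 groups of 2 libraries, the 15705 entries that reached 1 FPKM in 2 or more of the 8 libraries, Benjamini-Hochberg adjustment over all of them and a threshold of 0.05. The script was tested on simulated data. Named outside the lists were, of entries with symbols, at least 5 FPKM and groups without overlap, the 12 with the smallest p and the 10 with the largest fold change a direction, and the 3 unnamed loci with the smallest p. Members and gene lists were chosen with earlier results of these data known. Alternatives were a pseudocount of 0.1, other filters, other scalings, other fits and leaving out each library. Promoters came from RefSeq tables matched by symbol. The series' other samples were not analysed here, and some genes of the lists are counted but not reported by name.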

Additional observations from a re-analysis of the deposited data

Results flagged for a closer look

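In 15 genes of the lists both KO libraries lay on one side of both WT libraries at day 2 and on the other side at day 4, out of 276 list genes of at least 5 FPKM at each day (5.43%). Over all genes of that level it was 410 of 9213 (4.45%), so the share in the lists is near the background. The difference between the days was tested in limma's model over all genes, and none of the 15 passed (adjusted p from 0.71 to 0.94). The values below are the difference at day 4 minus that at day 2, in log2 units.

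Below WT at day 2 and above it at day 4 were 11 genes. The HOX genes among them were Hoxa4 (+1.05), Hoxb2 (+0.56), Hoxb6 (+0.91) and Hoxb9 (+0.38). Hoxb6 measured 87.8 and 106 FPKM in 58 kb KO and 87.5 and 74.5 FPKM in WT at day 4, where KO-i and WT-1 were nearly level, and 60.1 and 69.6 FPKM in 58 kb KO and 104 and 101 FPKM in WT at day 2. The others were Meox1, of the somites (+0.85), Dppa4, of pluripotent cells (+0.72), the neural factor Sox3 (+0.71), Dhcr7, of cholesterol synthesis (+0.57), Ring1, of Polycomb (+0.50), Ezr, of the cell cortex (+0.25), and Gpi1, of glycolysis (+0.14).

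Above WT at day 2 and below it at day 4 were 4 genes. Cdh2, or N-cadherin, had -0.87, with 16.7 and 22.8 FPKM in 58 kb KO and 28.5 and 30.7 FPKM in WT at day 4 and 7.83 and 8.30 FPKM in 58 kb KO and 6.69 and 6.06 FPKM in WT at day 2. Plod2, a collagen hydroxylase, had -0.79, and the imprinted Rian -0.75 and Impact -0.50.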

How the results depend on the processing

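The 0 genes called at day 4 became 1 with a pseudocount of 0.1 (XLOC_019507), 1 without a filter (AK205396), 1 without WT-1 (XLOC_024167) and 7 without KO-j (among them 2210409E12Rik, Prss50, Scarna6, XLOC_007279, XLOC_009690 and XLOC_016466), and stayed 0 in the other 9 alternatives; the cause was not tested. Leaving out a library in turn gave 0 to 7 called genes, and at an unadjusted p under 0.05 593 to 1519 lower genes (631 without KO-i) and 530 to 1784 higher genes (687 without KO-i). Without overlap were 5085 to 5842 lower genes (5466 without KO-i, 5842 without KO-j, 5150 without WT-2) and 5392 to 6832 higher genes (5921 without KO-i, 6832 without KO-j, 6117 without WT-1), more than with all libraries because 3 libraries overlap less often than 4. Library names (KO-i, KO-j, WT-1, WT-2) recur over days, not over genotypes, so they pair no KO library with a WT library. With the name as a replicate block across days (correlation 0.252) 0 genes were called, and 1069 lower and 1201 higher genes had an unadjusted p under 0.05. With libraries scaled to a common median these were 1247 and 991 genes, and 3876 lower and 3522 higher genes were without overlap, against 3407 and 3914, since the scaling moves the median of all genes. Over these and a further alternative chosen after seeing the data, which left out genes in the shifted regions of chromosomes 1, 6 and X, the list medians kept their sign for endoderm factors (-0.81 to -0.51), visceral endoderm (-0.86 to -0.51), basement membrane (-0.69 to -0.40), HOXA (-0.98 to -0.29) and germline genes (0.18 to 1.04), and changed it in 1 or more alternatives for the HOXA neighbours, RA, neural progenitor, neuronal, trophoblast, contractile, naive and core pluripotency, FGF, Wnt, Polycomb, cholesterol, fibroblast and blood lists (RA to +0.08 without the shifted regions). Of the values of single genes under an alternative 0 turned their sign, 1562 kept their side of the threshold and 4 became called (XLOC_019507, 2210409E12Rik, Scarna6 and XLOC_016466). With 2 libraries a group, at 10.1 to 16.0 M reads, small differences of low genes were not detectable. Large differences of genes well above the filter did not pass either. Haunt, at 31.8 and 40.6 FPKM in WT at day 4, had -3.93 (limma adjusted p = 0.128).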
